A study of Mus musculus with 8 samples.

Results

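A set of 10 genes of the NOTCH pathway that act behind the receptor was followed in the left and right heart field of the mouse embryo: the Deltex genes *Dtx1*, *Dtx2*, *Dtx3* and *Dtx4*, the nuclear factors *Rbpj*, *Maml1*, *Maml2* and *Maml3*, and the adaptors *Numb* and *Numbl*. They were picked by their symbols, and all 10 were found among the 48526 genes of the count table. The libraries were made from polyA RNA of the microdissected heart field of wild-type male C57bl6/J embryos at stage E8.5f, when the heart tube is looping, with no allele or agent added. A left and a right library were made of every one of 4 embryos, which are called L29-3, L43-5, L46-8 and also L49-3, so that the 4 left and 4 right libraries are paired by animal. The right side of the same embryo is the only control, and the comparison asks whether these genes are expressed asymmetrically.

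NOTCH receptors are cut upon contact with a ligand on a neighbouring cell, and the released intracellular domain enters the nucleus. There it joins RBPJ, a DNA-binding protein that represses its targets together with corepressors when NOTCH is silent, and a Mastermind-like protein (MAML), which recruits acetyltransferases to switch the same targets on. Deltex proteins are E3 ubiquitin ligases that control the traffic and turnover of the receptor, and NUMB and NUMBL are endocytic adaptors known as inhibitors of NOTCH. In the heart, NOTCH signaling is known for its part in the outflow tract, the valves and the trabeculae.

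After removal of duplicate reads by the authors, the libraries held between 1147446 and 3520753 counts. A count of 0 allows up to 3 counts, or 0.852 CPM (counts scaled to a common total) in the largest library and 2.61 CPM in the smallest, for counting error only. The heart field label was checked against marker genes. The second heart field gene *Isl1* had between 91.6 and 170 normalized counts in the 8 libraries, where normalized means divided by DESeq2 size factors. The juxta-cardiac gene *Tbx5* varied from 19.9 to 164. Markers of other tissues were present as well: *Sox2* of the neural tube ranged from 63.5 to 197 normalized counts, *Tnnt2* of cardiomyocytes from 105 to 678, *Cdh5* of the endothelium from 96.4 to 207, *Meox1* of the paraxial mesoderm from 175 to 305 and *Foxa2* of the foregut from 17.1 to 56.5. *Trp63* of the surface ectoderm, with at most 4 counts in a library, was at 0 in 2 of the 8 libraries. Other markers of this tissue were higher. *Grhl3* had between 2 and 23 counts in a library, and *Tfap2a* and *Grhl2* had means of 58.5 and 43.1 normalized counts. In bulk samples such as these, fewer cells of a type and less RNA per cell cannot be told apart.

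*Rbpj* stands at the centre of the nuclear complex, and the letters TGGGAA, the core that RBPJ recognizes, were looked for on both strands of the RefSeq promoters (GRCm38.p6, 250 bases before to 50 after a start site). A promoter was at hand for 8 of the 10 genes, in 12 windows because some genes have several start sites. None was at hand for *Dtx3* and *Dtx4*, which were therefore not searched. The core was found in 5 of the 12 windows, which belong to *Rbpj*, *Dtx2*, *Maml2* and *Maml3*, as against 25.6% of all 32851 promoters of this length. The matches are shown with their surroundings, on the strand of the gene, with the core or its reverse complement in capitals, to let the members that carry the letters be compared.
Rbpj, chr5:53590185-53590214: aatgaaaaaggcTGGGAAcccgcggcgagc
Rbpj, chr5:53590269-53590298: gacgctcgcattTTCCCAggacccctcctc
Dtx2, chr5:135994765-135994794: tcagaactacatTTCCCAgaaggcactgcg
Maml2, chr9:13662303-13662332: acactcttgcacTTCCCAgggctcgggcag
Maml3, chr3:52105174-52105203: gcaggtcggggcTTCCCAgcctggggagca
The second *Rbpj* match lies in the windows of both its start sites, and the *Rbpj* and *Dtx2* genes are on the plus strand, as is *Maml2*, whereas *Maml3* is on the minus strand. These matches are letters in a window, and binding was not measured.

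Testing was restricted to genes that reached 20 normalized counts in 4 or more libraries. Of the 10 genes, 9 passed, and *Dtx1* did not. Left and right were compared by the quasi-likelihood test of edgeR, blocked by embryo, and p-values were adjusted with the Benjamini-Hochberg procedure over all 9744 tested genes. The threshold of the study asks for a 1.2-fold difference or more and for an unadjusted p not above 0.05. At this threshold 1 of the 9 was called, *Dtx4*, which was lower on the left; 3.05% of all tested genes were called in either direction, and 1.42% lower on the left. After adjustment, 0 of the 9 had a p under 0.05 in edgeR, limma-voom or DESeq2, as against 0.0103% of all tested genes in edgeR, and 1 had an unadjusted p under 0.05 with each of these tools. *Dtx2* had the higher value on the left in each of the 4 embryos, as had 6.26% of all tested genes, and *Numb* the lower one in each of the 4, as had 6.11%. The left and right libraries overlapped for all 10 genes, whereas they did not for 2.51% of all tested genes.

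**Figure D1:**
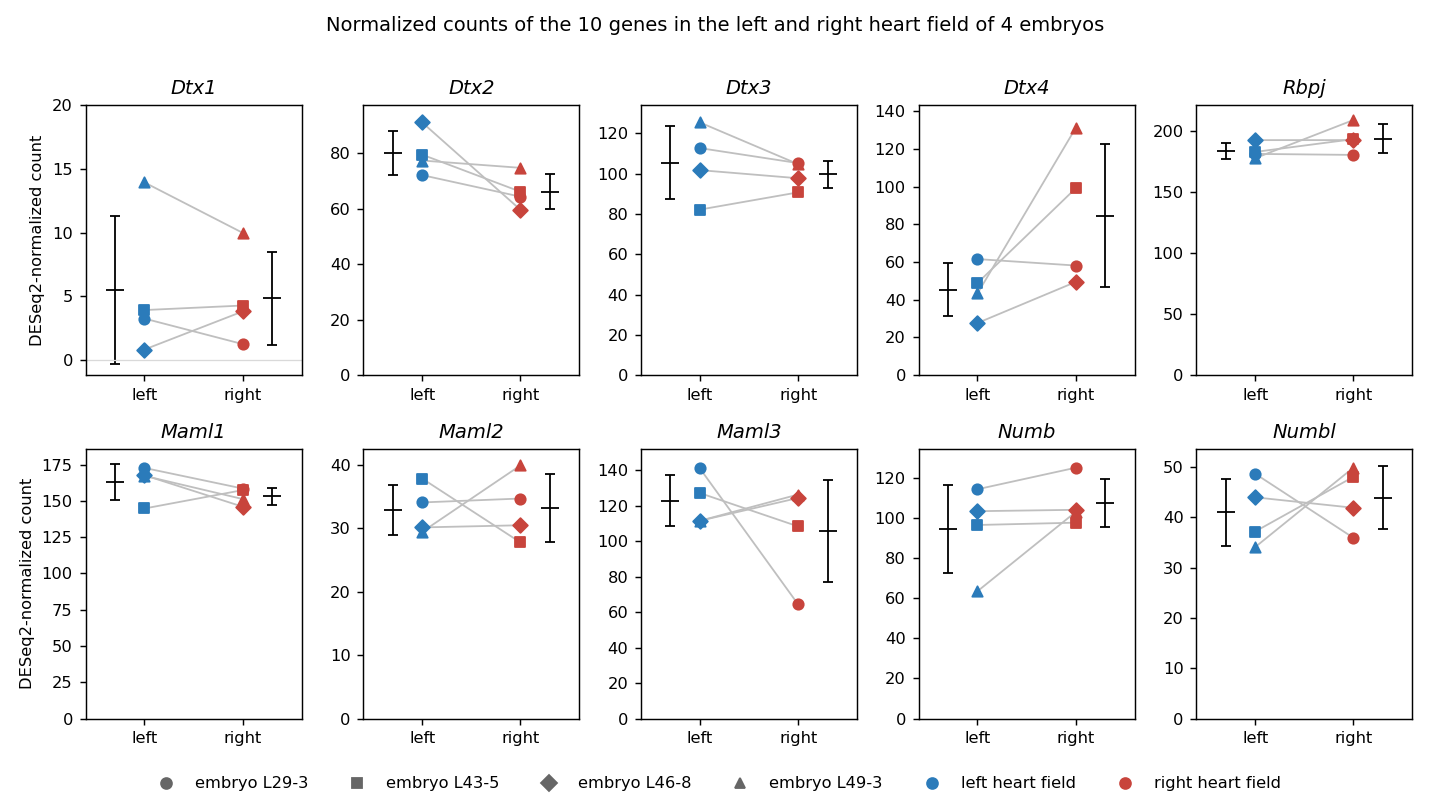
DESeq2-normalized counts of the 10 genes in each library, left (blue) and right (red), with a grey line joining both sides of an embryo and a marker shape for each embryo; black bars are the mean ± SD of 4 embryos. *Dtx4* is higher on the right in 3 of the 4 embryos, and the left and right libraries overlap for each of the 10 genes.

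*Dtx4* (ENSMUSG00000039982, chromosome 19 of GRCm38 from 12466338 to 12501454, minus strand) encodes a Deltex ubiquitin ligase of the kind that binds the intracellular domain of NOTCH. On the left it had 61.6 normalized counts in L29-3, 48.9 in L43-5, then 27.7 in L46-8 and finally 43.4 in L49-3. The values on the right were 58.2, 99.2, 49.5 and 131, in the same order of embryos. The right side was thus higher in L43-5, L46-8 and L49-3 and close to the left in L29-3, and the 2 groups overlapped. The means were 45.4 ± 14.1 for the left and 84.6 ± 38.0 for the right (SD, n = 4), or 1.78-fold higher on the right in edgeR (log2 fold change of left over right -0.83, standard error 0.224, 95% interval -1.32 to -0.34). The unadjusted p was 0.00304 and the adjusted p 0.987, in edgeR's quasi-likelihood test. This p ranked 24 among the 9744 tested genes. An exact sign-flip permutation test of the 4 ratios gave a two-sided p of 0.25, where the smallest value that 4 pairs allow is 1 in 8.

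The counts behind the ratio of *Dtx4* were modest. In L43-5, 75 reads on the left stood against 186 on the right, a log2 ratio of -1.02 with an exact 95% interval of -1.43 to -0.63 for counting error. The ratio was -1.61 in L49-3 (28 against 79 reads, interval -2.28 to -0.97) and -0.85 in L46-8 (34 against 39 reads, interval -1.56 to -0.15). All 3 intervals lay below 0. In L29-3, with 76 and 47 reads, the ratio was 0.09 and its interval, -0.45 to 0.65, held 0. The ratios differed between embryos by more than the counts alone would give, with an SD of 0.69 on the log2 scale against 0.29 from counting. *Dtx4* passed the threshold of the study in all 11 alternative analyses. Its log2 fold change ran from -0.61 without L49-3 to -1.14 without L29-3, and the adjusted p from 0.00404, in the fit without a filter on low counts, to 1.

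**Figure D2:**
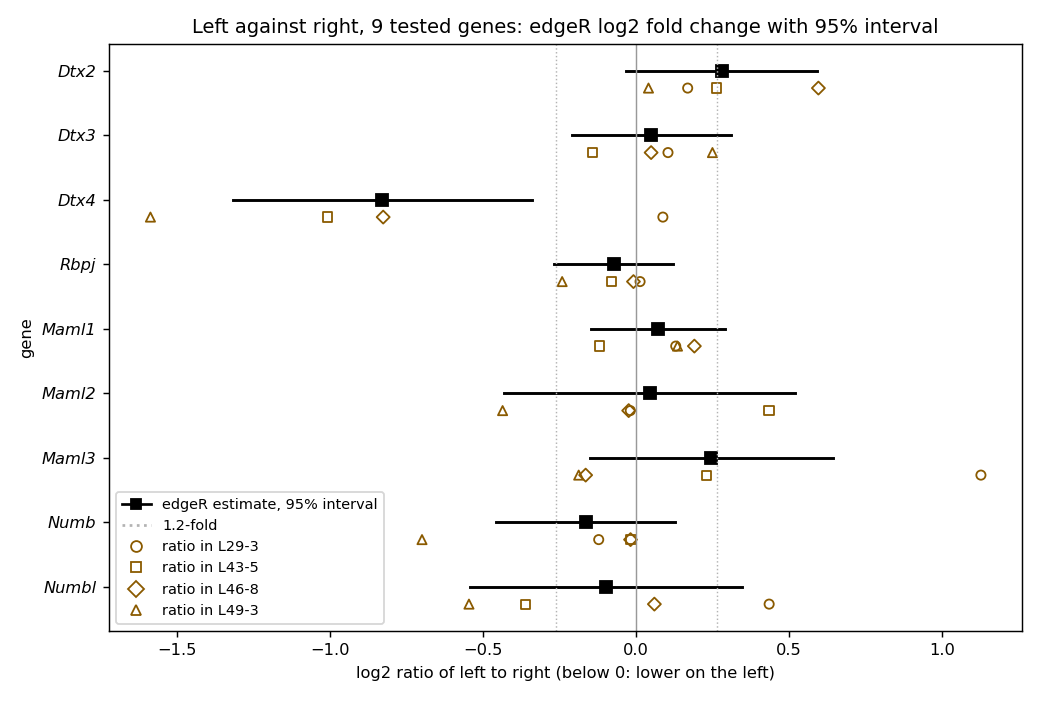
Log2 ratio of left to right for the 9 tested genes: black squares and lines are the edgeR estimate with its 95% interval, open symbols the ratio in each embryo (0.5 CPM added), and dotted lines a 1.2-fold change. The interval lies wholly below 0 for *Dtx4* and includes 0 for the other 8.

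The heart and the back of the embryo had been taken away before the heart fields were collected, and RNA of these tissues was looked for beside *Dtx4*. Of 8 neural tube markers 6 were tested, 2 of which were called as lower on the left in edgeR, *Sox1* (-0.98, unadjusted p = 0.0167) and *Pax6* (-0.83, unadjusted p = 0.0142), which passed in 7 of 10 and 8 of 11 alternatives. After adjustment 0 of the 6 were under 0.05 in edgeR. The other 4, among them *Sox2* (-0.08, unadjusted p = 0.643) and *Nes* (-0.01, unadjusted p = 0.923), did not pass, and the median log2 fold change of the 6 was -0.27. *Rfx4*, a marker of the back, had between 4.07 and 61.5 normalized counts in a library. The summed level of the 8 markers was between 166 and 415 CPM on the left and between 234 and 505 CPM on the right. It was lower on the left in L43-5, L46-8 and L49-3, with log2 ratios of -0.53, -0.85 and -0.28, and higher on the left in L29-3, with 0.43. These are the embryos in which *Dtx4* was respectively lower and not lower on the left. The sizes did not go together. *Dtx4* had log2 ratios of -1.02 in L43-5, -0.85 in L46-8 and -1.61 in L49-3, so that it differed most where the sum of these embryos differed least. Single markers did not all follow the sum. *Sox2* was higher on the left in L49-3 (197 against 153 normalized counts), and *Rfx4* was slightly so in L43-5 (37.2 against 36.3). Both were higher on the left in 2 of the 4 embryos, whereas *Sox1*, *Sox3*, *Pax6* and *Nes* were so in 1. Neither defining marker, *Sox1* or *Sox2*, was at 0 in any library. The surface ectoderm, of which 5 of 8 markers were tested and 0 called in edgeR, summed to between 503 and 823 CPM on the left and between 617 and 743 CPM on the right, with higher values on the left in 2 of the 4 embryos. Most of this sum came from *Krt8* and *Krt18*, with means of 624 and 504 normalized counts, whereas *Tfap2a* had 58.5. In L46-8 these keratin genes were higher on the left (759 against 546 and 598 against 420). The other tested markers were higher on the right there: *Tfap2a* (63.5 against 88.8), *Grhl2* (43.1 against 50.8) and *Wnt6* (30.9 against 35.5). In L49-3 both went the other way. *Tfap2a* (86.7 against 58.2), *Grhl2* (34.1 against 31.6) and *Wnt6* (23.2 against 19.9) were higher on the left. *Krt8* (407 against 528) and *Krt18* (342 against 477) were higher on the right. In L43-5 *Grhl2* was higher on the left (49.5 against 37.4), and *Tfap2a* and *Wnt6* were higher on the right. Paraxial mesoderm markers had a median of -0.21 and cardiomyocyte markers of -0.30, with 5 of 5 tested genes below 0 in each list and 0 called. Of all 9744 tested genes, 5010 were below 0. The sums of both lists were higher on the left in 2 of the 4 embryos and lower in the others. For paraxial mesoderm these were L29-3 (log2 ratio 0.26) and L49-3 (0.12), and for cardiomyocytes L29-3 (0.10) and L46-8 (0.78). In published single-cell data of the same stage, the authors of the study saw *Dtx4* in ectodermal cells only. The part of these tissues in the difference of *Dtx4* was not tested.

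**Figure D3:**
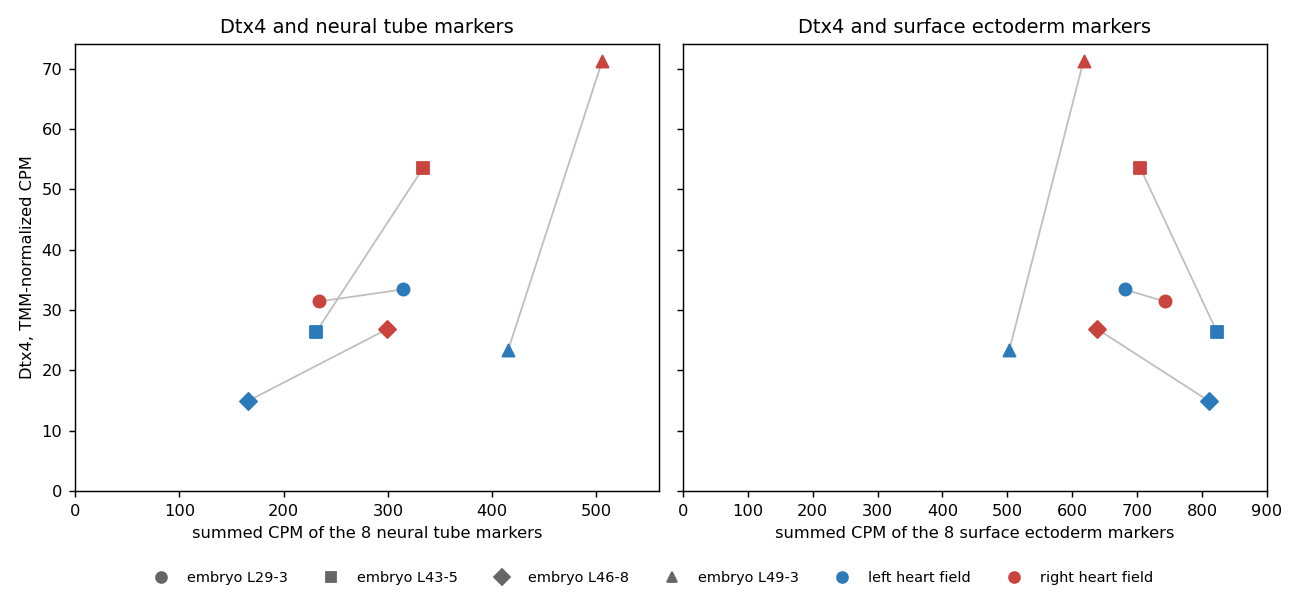
TMM-normalized CPM of *Dtx4* (vertical axis) against the summed CPM of the 8 neural tube markers or the 8 surface ectoderm markers (horizontal axes), with 1 point per library and a grey line joining left (blue) and right (red) of an embryo. Towards the right side, the lines of L43-5, L46-8 and L49-3 go up both in *Dtx4* and in the neural tube sum. The surface ectoderm sum, most of it *Krt8* and *Krt18*, moves in both directions.

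Of the 9 tested members, *Dtx4* varied most across the libraries as a whole. The SD of its log2 CPM was 0.69 over the 8 libraries, larger than in 97.8% of the tested genes. *Maml3* followed with 0.34 and *Numb* with 0.29, whereas *Rbpj* and *Maml1* had 0.08 and 0.09. The SD was smaller than that of *Rbpj* in 4.26% of the tested genes. Embryos were compared with a joint edgeR quasi-likelihood test: 0 of the 9 members differed with an adjusted p under 0.05, as against 0.174% of the tested genes, and 0 did with limma-voom or DESeq2. Without adjustment, *Dtx4* differed between embryos in edgeR's quasi-likelihood test (unadjusted p = 0.0321, adjusted p = 0.430), as did 9.99% of the tested genes at a p under 0.05. Among all tested genes, the 10 with a profile most like that of *Dtx4* over the 8 libraries, by Pearson's r of log2 CPM, were *Cipc* (0.956), *Pole2* (0.910), *Ptprz1* (0.907), *Rasl10b* (0.906), *Fkbp3* (0.905), *Ctnnbl1* (0.904), *Igbp1* (0.900), *Ctnnal1* (0.892), *Trnau1ap* (0.888) and *Mapk7* (0.887). These libraries are 4 pairs and share their embryos. Among these 10 genes, *Ptprz1*, a receptor tyrosine phosphatase, had the largest SD, of 0.74, and a log2 fold change of -0.78 (unadjusted p = 0.0188 in edgeR), whereas *Fkbp3*, a prolyl isomerase, had an SD of 0.06.

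*Dtx2* (ENSMUSG00000004947, chromosome 5 from 135994800 to 136032872, plus strand) encodes another Deltex ligase. It had 72.1, 79.5, 91.2 and 77.4 normalized counts on the left in L29-3, L43-5, L46-8 and L49-3, and 64.4, 66.2, 59.6 and 74.8 on the right. The left was higher in each embryo, yet the lowest left value lay under the highest right one. The means were 80.1 ± 8.02 and 66.2 ± 6.33 (SD, n = 4), and the log2 fold change came to 0.28 (standard error 0.143, 95% interval -0.03 to 0.59) with an unadjusted p of 0.0746 in edgeR. The difference was largest in L46-8, with a log2 ratio of 0.60 against 0.04 to 0.26 in the other embryos, and without this embryo the log2 fold change was 0.18. The ratios of *Dtx2* spread by no more than counting would give, with an SD of 0.24 against 0.25.

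*Dtx3* (ENSMUSG00000040415, chromosome 10 from 127190378 to 127195728, minus strand) encodes a shorter Deltex protein. Its normalized counts were 113, 82.1, 102 and 125 on the left and 105, 90.7, 97.7 and 105 on the right. The right values lay within the range of the left ones. The log2 fold change came to 0.05 (standard error 0.120, 95% interval -0.21 to 0.31), so that a difference of more than 1.24-fold lies outside the interval.

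*Dtx1* (ENSMUSG00000029603, chromosome 5 from 120680202 to 120711927, minus strand), also known as a target of NOTCH in lymphoid cells, was near the limit of detection. It had 4, 6, 1 and 9 reads on the left and 1, 8, 3 and 6 on the right, or 38 in all. Both libraries of L49-3 were the highest, with 13.9 and 9.97 normalized counts, and the other 6 lay between 0.814 and 4.27. The left was higher in 2 of the 4 embryos, and the exact sign-flip permutation test gave a two-sided p of 0.875. A difference between the sides was not detectable at this depth.

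Within the Deltex family, levels can be set against each other per length. *Dtx3* made up 65.7% ± 4.13 of the summed CPM per kilobase of the 4 genes in left libraries and 60.1% ± 7.87 in right libraries (SD, n = 4). *Dtx4* made up 14.0% ± 4.29 and 24.1% ± 7.80, *Dtx2* 18.6% ± 3.66 and 14.5% ± 0.645, and *Dtx1* 1.58% ± 1.51 and 1.33% ± 0.833. The share of *Dtx4* was between 9.13% and 17.7% on the left and between 16.7% and 32.1% on the right, so that the sides overlapped. That of *Dtx2* was between 15.4% and 22.4% on the left and between 13.6% and 15.0% on the right, although its normalized counts overlapped between the sides. Shares of a family add up to a fixed sum and depend on each other. These shares are a description and were not tested.

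*Rbpj* (ENSMUSG00000039191, chromosome 5 from 53466152 to 53657362, plus strand) varied little between libraries. It had 182, 183, 193 and 178 normalized counts on the left and 181, 194, 193 and 209 on the right. The sides overlapped, and the highest value was the right of L49-3. The means were 184 ± 6.35 and 194 ± 11.7 (SD, n = 4), the log2 fold change came to -0.07 (standard error 0.0891) and the 95% interval, -0.27 to 0.12, was the narrowest of the 9. A left level below 0.831 or above 1.09 times the right level lies outside this interval. Transcripts of *Rbpj* are near-identical to those of the pseudogene *Rbpj-ps3*, with 99.7% identity over 1441 bases, and the way reads were shared between them is not given in the sources used here. *Rbpj-ps3* had 9 to 24 reads in a library and 125 in all, or from 5.34% to 13.5% of the count of *Rbpj*. With these reads added to *Rbpj*, a choice made after seeing the data, the log2 fold change was -0.10.

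The Mastermind-like genes encode the coactivators that complete the complex on DNA. *Maml1* (ENSMUSG00000050567, chromosome 11 from 50255634 to 50292311, minus strand) had 173, 145, 168 and 167 normalized counts on the left and 158, 157, 146 and 151 on the right. The left was higher in 3 of the 4 embryos, and the sides overlapped. The log2 fold change came to 0.07 (standard error 0.100, 95% interval -0.15 to 0.29). Its exons share 135 bases with *Gm26542* on the opposite strand, which had 8 reads in all.

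*Maml2* (ENSMUSG00000031925, chromosome 9 from 13297957 to 13709388, plus strand) was the lowest of the 3 Mastermind-like genes, with 34.0, 37.8, 30.1 and 29.4 normalized counts on the left and 34.7, 27.7, 30.5 and 39.9 on the right. The sides overlapped, and the direction turned between L43-5 and L49-3. The log2 fold change came to 0.04 (standard error 0.218, 95% interval -0.43 to 0.52), an interval that leaves room for a 1.43-fold higher level on the left.

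*Maml3* (ENSMUSG00000061143, chromosome 3 from 51685907 to 52105076, minus strand) had 141, 127, 111 and 111 normalized counts on the left and 64.4, 108, 124 and 126 on the right. The right library of L29-3 stood apart as the lowest. In this embryo *Maml3* had 174 reads against 52 on the right, a log2 ratio of 1.14 with an exact interval of 0.68 to 1.61, whereas the intervals of the other 3 embryos held 0. The log2 fold change came to 0.25 (standard error 0.182, unadjusted p = 0.202 in edgeR), and without L29-3 it was -0.01. The SD of its ratios was 0.61 against 0.20 from counting. L29-3 is also the embryo in which *Dtx4* was not lower on the left.

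Taken per kilobase, *Maml1* made up 63.9% ± 3.49 of the summed Mastermind-like level in left libraries and 64.9% ± 5.14 in right libraries (SD, n = 4). *Maml3* made up 25.3% ± 2.24 and 23.4% ± 5.58, and *Maml2* 10.8% ± 1.49 and 11.7% ± 1.74. The ranges of both sides overlapped for each gene.

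*Numb* (ENSMUSG00000021224, chromosome 12 from 83794034 to 83921934, minus strand) had 114, 96.5, 103 and 63.5 normalized counts on the left and 125, 97.6, 104 and 103 on the right. It was lower on the left in every embryo, but by a log2 ratio of only -0.02 in L43-5 and in L46-8, -0.12 in L29-3 and -0.70 in L49-3. The left library of L49-3, with 41 reads against 62 on the right, was the lowest of the 8. Its counting interval, -1.31 to -0.12, lay below 0, and those of the other 3 embryos held 0. The log2 fold change came to -0.16 (standard error 0.134, 95% interval -0.46 to 0.13, unadjusted p = 0.243 in edgeR), and without L49-3 it was -0.05. *Numb* shares 166 exon bases with *Gm46367* on the opposite strand, which was not analysed here.

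*Numbl* (ENSMUSG00000063160, chromosome 7 from 27258433 to 27282144, plus strand), the paralogue of *Numb*, had 48.6, 37.2, 44.0 and 34.1 normalized counts on the left and 35.9, 48.0, 41.9 and 49.9 on the right. It was higher on the left in L29-3 and L46-8 and lower in L43-5 and L49-3. The log2 fold change came to -0.10 (standard error 0.204, 95% interval -0.54 to 0.35). Per kilobase, *Numb* made up 83.4% ± 2.01 of the summed level of both genes in left libraries and 84.3% ± 3.11 in right libraries (SD, n = 4).

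For 8 of the 9 tested members the 95% interval included 0, and for 8 it lay within a 2-fold difference in either direction. For 6 of them it lay within 1.5-fold. In 5 of the 9, *Dtx2*, *Dtx3*, *Rbpj*, *Maml1* and *Maml2*, the ratios of the 4 embryos spread by less than counting alone would give. The median log2 fold change of the 9 was 0.04, and that of all tested genes was -0.0042.

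Levels can be compared between genes per length. In CPM per kilobase of exon, over 8 libraries, *Dtx3* was the highest with 21.6 ± 2.78 (SD, n = 8), followed by *Maml1* with 15.5 ± 1.01 and *Numb* with 13.9 ± 2.46. *Rbpj* had 8.02 ± 0.450, *Dtx4* 6.73 ± 3.51, *Maml3* 5.90 ± 1.19 and *Dtx2* 5.62 ± 0.758. *Maml2* and *Numbl* had 2.71 ± 0.357 and 2.65 ± 0.390, and *Dtx1* had 0.529 ± 0.463. *Dtx3* was above *Maml1*, *Numb* above *Rbpj*, *Dtx2* above *Maml2* and *Numbl* above *Dtx1* in all 8 libraries. The other neighbours in this order were not separated: *Maml1* was above *Numb* in 6 of the 8 libraries, *Rbpj* above *Dtx4* in 6, *Dtx4* above *Maml3* in 3, *Maml3* above *Dtx2* in 5 and *Maml2* above *Numbl* in 4. The place of *Rbpj* depended on the length used. Its merged exons cover 12750 bases, whereas its longest transcript has 5485, and with the latter its level was 18.6, above *Maml1* in all 8 libraries and under *Dtx3*, at 27.8, in all 8.

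**Figure D4:**
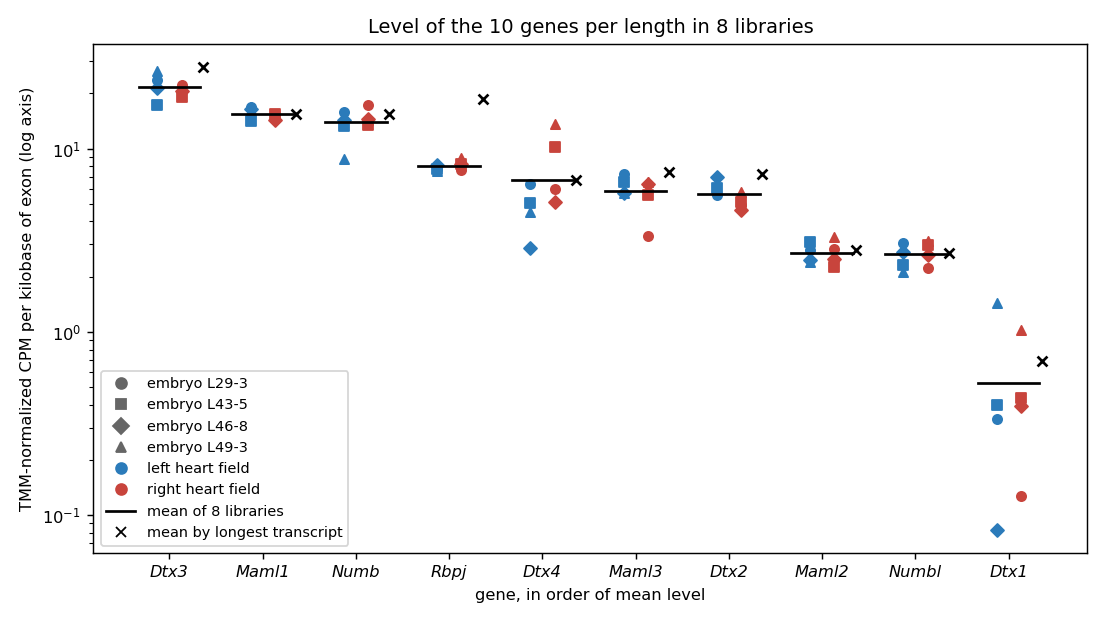
TMM-normalized CPM per kilobase of merged exons (log axis) for the 10 genes in order of their mean, with 1 point per library, left in blue and right in red; lines are means of 8 libraries and crosses are means by the longest transcript. *Dtx3* is the highest and *Dtx1* the lowest, and the cross of *Rbpj* lies far above its line.

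The other genes of the pathway were grouped into 5 lists of 74 genes in all, of which 56 were tested. At the threshold of the study 2 of the 56 were called as higher on the left and 3 as lower, as against 1.63% higher and 1.42% lower of all tested genes, and the median of the list was 0.0061 (log2 fold change). After adjustment 0 were under 0.05 in edgeR, limma-voom or DESeq2, and 6 had an unadjusted p under 0.05 in edgeR, 5 in limma-voom and 3 in DESeq2, where 4.36% of all tested genes had such a p in edgeR. Closest to the members are the partners of RBPJ and MAML, such as the corepressors *Ncor1* and *Spen* and the acetyltransferases *Ep300* and *Crebbp*. Of 21 partners 18 were tested and 0 were called in edgeR, their log2 fold changes running from -0.19 to 0.25 with a median of -0.01. The smallest p among them was that of the RBPJ-binding histone demethylase gene *Kdm5a*, with a log2 fold change of 0.18 and an unadjusted p of 0.0505.

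Among the partners of NUMB and Deltex, which are ubiquitin ligases and parts of the endocytic machinery, 15 of 20 genes were tested, 0 were called as higher and 2 as lower on the left, with a median of 0.05. *Lnx2*, which encodes a ubiquitin ligase that binds NUMB, had 35.7, 37.2, 39.9 and 21.7 normalized counts on the left and 58.2, 56.0, 69.8 and 71.5 on the right. All 4 left values lay under all 4 right values. Its log2 fold change came to -0.87 (standard error 0.199, unadjusted p = 0.000954, adjusted p = 0.845 in edgeR), it passed the threshold of the study in all 11 alternative analyses, and its adjusted p ran from 0.0137, without a filter, to 1. *Arrb2*, encoding a beta-arrestin, had 75.4, 63.9, 74.9 and 85.2 on the left and 79.2, 97.1, 88.8 and 99.7 on the right. Its sides overlapped, and with a log2 fold change of -0.31 (unadjusted p = 0.0428) it passed in 5 of the 11 alternatives.

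In the remaining lists, 2 of the 11 tested genes for receptors, ligands and their modifiers were called, *Notch3* (0.28) and *Jag1* (0.32), both higher on the left, which passed in 9 and 8 of the 11 alternatives. Of the 8 tested genes for receptor cleavage 0 were called in edgeR. *Ncstn*, with an unadjusted p of 0.0261, missed the threshold because its fold, 1.199, was under 1.2. Of the 4 tested target genes, *Hes1* was called as lower on the left (-0.28, unadjusted p = 0.0333), as it was in 5 of the 11 alternatives.

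**Figure D5:**
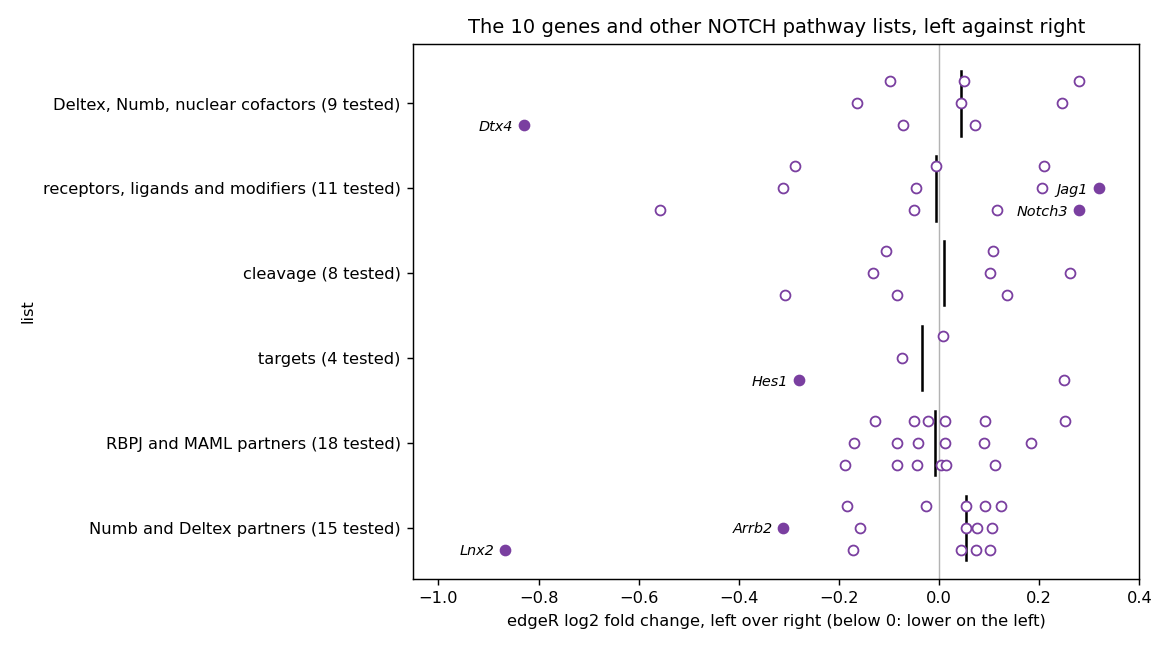
EdgeR log2 fold change of left over right for the 9 tested members and for the tested genes of the 5 other lists, with 1 point per gene, filled and named where the gene passed the threshold of the study, and a black line at the median of each list. *Dtx4* and *Lnx2* lie at -0.83 and -0.87, and the other genes lie between -0.56 and 0.32.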

How the data were processed

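The 8 libraries were mapped to side and embryo from their labels. Reads had been aligned to GRCm38 by the authors, who left out duplicates and deposited counts per gene from featureCounts, not normalized; the submitters' processing notes also name HISAT2. The library kit keeps the strand, but its use in counting is not given in the sources used here, so that reads of overlapping antisense genes may not have been separated.

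The members and lists were chosen with earlier results of these data known. All 10 members are named, and from each pathway list every gene called at the study's threshold or otherwise the gene with the smallest p. The fit used edgeR 4.0.16 in R 4.3.3 (TMM, quasi-likelihood, embryo as block) on all 9744 genes that passed the filter. The embryo pairs the libraries because it is the animal that both were dissected from; deviations from the side means correlated at 0.438 in L49-3, 0.190 in L43-5, 0.165 in L29-3 and -0.02 in L46-8, against values from -0.39 to 0.255 between sides of different embryos. Replicates of a group are separate embryos, and no pair of libraries differed by as little as sampling noise (lowest chi-square per degree of freedom 1.93). DESeq2 1.42.0, limma 3.58.1, other scalings, other filters, no block and each embryo left out were alternatives; *Rbpj-ps3* counts were added to *Rbpj* after seeing the data. Per-embryo ratios used TMM-normalized CPM, with 0.5 added except where a counting interval is given. CPM per kilobase used merged GENCODE vM21 exons. The fit was tested on simulated data, where edgeR recovered 100% of 200 genes changed 4-fold among 9744, with 8 calls among unchanged genes. Changes smaller than 4-fold, such as those of the members, were not simulated.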

Additional observations from a re-analysis of the deposited data

Results flagged for a closer look

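Over the 4 embryos, the log2 ratio of left to right of *Numb* was -0.70 in L49-3, -0.12 in L29-3 and -0.02 in each of L43-5 and L46-8, so that L49-3 lay far from the others. The gap to its nearest neighbour was 0.846 of the whole range, above Dixon's 95% critical value for 4 values. Of 30 groups of 4 values examined (the left level, the right level and the ratio of each of the 10 genes), 1 stood out, and chance alone gives about 1 in 20. Both libraries of L49-3 are the smallest of the 8. The left, with 1237593 counts, had 41 reads of *Numb*, and the right, with 1147446 counts, had 62. *Tbx5* was lowest in both libraries of L49-3, and *Tnnt2* in its left one. The cause of this ratio was not tested.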

How the results depend on the processing

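*Dtx4* was called, and no other member, under all 11 alternatives. With no replicate block, in which the libraries are not paired by embryo, its log2 fold change was -0.89 (unadjusted p = 0.0119, edgeR), and this changed no other call of a member. The number of members with an adjusted p under 0.05 went from 0 to 1, *Dtx4*, in edgeR with no filter, both for the sides and for the embryos. Near-zero log2 fold changes turned sign when an embryo was left out: *Dtx3* ran from -0.0031 without L49-3 to 0.13 without L43-5, *Maml2* from -0.14 without L43-5 to 0.16 without L49-3, *Maml3* from -0.0094 without L29-3 to 0.39 without L46-8, and *Numbl* from -0.27 without L29-3 to 0.0278 without L43-5, with 0.0069 without L49-3. The other 95 values of the members' fold changes kept their sign. Some crossed 1.2-fold: without L46-8, *Dtx2* went from 0.28 to 0.18 and *Maml3* from 0.25 to 0.39. No call of a member changed. Among all tested genes, 687 were called with no filter and 59 with DESeq2, against 297. With an adjusted p under 0.05 there were 34 with no filter and 2 with DESeq2, against 1. There were 0 with at least 10 counts in every library and 0 with no replicate block, where edgeR gave 432 and 320 at an unadjusted p under 0.05, and from 1 to 5 when an embryo was left out. Of the other pathway genes, 3 were called with DESeq2 and from 2, without L49-3, to 8, without L29-3, against 5; without L43-5 there were 3. Genes that differed among embryos numbered 641 with no filter, 9 with at least 10 counts in every library, 48 with DESeq2 and 4 with limma-voom, against 17; they were 237 without L46-8 and 0 without L49-3, where 451 had an unadjusted p under 0.05 in edgeR, and 46 and 27 without L29-3 and L43-5. Lengths of the longest transcript put *Dtx2* at 7.30, *Dtx3* at 27.8, *Rbpj* at 18.6 and *Maml3* at 7.46 CPM per kilobase. Depth limits *Dtx1* and *Maml2*, the members with the fewest counts, most. The cause of these shifts was not tested.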
